A study of Arabidopsis thaliana with 18 samples.

Results

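GSTU20, GSTU22, GSTU25 and UGT73B4 encode enzymes of detoxification in Arabidopsis thaliana. They were taken as 4 named genes, with the loci AT1G78370, AT1G78340, AT1G17180 and AT2G15490 and 1 probe set each, out of 22746 plant probe sets on the Affymetrix ATH1 array. The arrays measured total RNA of the Arabidopsis accession Est. Of the 18 arrays, 9 came from plants given 0.3 mM SA (salicylic acid, a hormone of plant defence) in 0.02% silwet, a surfactant that lets a solution wet leaves, and 9 came from plants given 0.02% silwet alone, so that the surfactant was common to all samples. The sources used here give neither tissue nor plant age nor the time of sampling, nor whether arrays of one treatment came from separate plants, and p-values therefore measure the spread between these samples, which can be technical.

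The sample titles carry a running number, and in that order each treatment goes through replicate numbers 1, 2 and 3 on 3 occasions. Such a set of 3 consecutive arrays is referred to as a title run: SA 46 to 48, SA 49 to 51 and SA 52 to 54, and silwet 37 to 39, silwet 40 to 42 and silwet 43 to 45. The labels do not say what separates the runs. SA and silwet runs were matched by their position, which the labels do not state as a pairing, so a run effect of unknown kind and the treatment cannot be told apart in a single pair of runs.

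Glutathione S-transferases join the tripeptide glutathione to electrophilic compounds, which makes them more soluble and marks them for transport into the vacuole. The tau class, to which GSTU20, GSTU22 and GSTU25 belong, is specific to plants, has many members and is known for its part in the response to herbicides and other foreign compounds. UDP-glycosyltransferases such as UGT73B4 add a sugar to small molecules and often act in the same detoxification route. In Arabidopsis, SA is known to switch on genes of both families early and for a short time, through as-1 type promoter elements bound by TGA transcription factors.

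Signals are MAS5 intensities on a linear scale, scaled to one level on each array. Array medians ran from 27.4 to 35.7, and a probe set was taken as near background on an array where its signal lay under that array's median. Array-wide, 27 probe sets for bacterial genes had medians of 0.731 to 2.65 per array. Of 8 green-tissue markers fixed for the check of tissue, 3 are named here, and RCA, LHCB4.2 and PRK had signals of at least 811 on every array. Of 4 root markers, EXPA18 (4.599 to 16.3) and PYK10 (53.8 to 254) are named, and 0 of 3 flower and seed markers.

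GSTU20 was far above background and the other members were near it. GSTU20 averaged a signal of 1028 over the 18 arrays, at the 97.7th percentile of plant probe sets, and lay near background on 0 of 18 arrays. GSTU22 averaged 12.1, at the 33.4th percentile, and lay near background on 17 of 18 arrays, the exception being SA title 47. GSTU25 averaged 8.58, at the 27.9th percentile, and lay near background on all 18 arrays. UGT73B4 averaged 10.7, at the 31.4th percentile, and lay near background on 16 of 18 arrays, the exceptions being SA titles 47 and 48. Signals of different probe sets do not compare the abundance of their transcripts.

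All 4 probe sets passed the filter on low values, a mean signal of at least 7.23. Over the 12 arrays of the later runs alone, the mean was 4.61 for GSTU25 and 1.71 for UGT73B4, under that limit, and 8.75 for GSTU22, over it. GSTU25 and UGT73B4 thus passed only through their first runs, SA 46 to 48 and silwet 37 to 39, and their differences between first and later runs are in part a result of that choice.

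GSTU20, a tau class glutathione S-transferase also known as a partner of the jasmonate-conjugating enzyme JAR1, was lowest in SA 46 to 48. Its signals there were 804, 536 and 598. They were 1165, 1229.6 and 896 in SA 49 to 51 and 1555, 1287 and 1691 in SA 52 to 54. In the silwet runs they were 889.8, 967 and 775 (titles 37 to 39), 943, 878 and 863 (titles 40 to 42) and 1039.5, 1037 and 1345 (titles 43 to 45). Every array of SA 46 to 48 lay below every array of the later SA runs, and 2 of its 3 arrays lay below all 9 silwet arrays.

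GSTU22, a tau class member that the gene table places close to GSTU20, was highest in SA 46 to 48, but with a wide spread. The signals were 9.38, 38.1 and 19.2 in SA 46 to 48, 11.6, 10.8 and 3.98 in SA 49 to 51, and 7.30, 5.71 and 6.89 in SA 52 to 54. In silwet they were 10.7, 17.4 and 18.2 in titles 37 to 39, 9.80, 13.2 and 7.78 in titles 40 to 42, and 10.04, 6.53 and 11.3 in titles 43 to 45. In both treatments the array of replicate 1 of the first run lay within the range of the later runs, so first and later runs overlapped.

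GSTU25, a tau class member known for conjugating the explosive trinitrotoluene, was higher in the first run of both treatments. Its signals were 8.38, 27.4 and 9.82 in SA 46 to 48, 3.94, 5.47 and 0.911 in SA 49 to 51, and 7.62, 3.23 and 2.73 in SA 52 to 54. In silwet they were 5.30, 22.1 and 26.0 in titles 37 to 39, 4.71 to 7.93 in titles 40 to 42, and 3.10 to 5.81 in titles 43 to 45. The first SA run did not overlap with the later SA runs, whereas in silwet the array of replicate 1 of the first run lay among the later ones.

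UGT73B4, a glycosyltransferase of phenolic compounds, showed the widest range of the 4 genes. Its signals were 20.9, 62.7 and 34.2 in SA 46 to 48, 0.879, 1.29 and 1.48 in SA 49 to 51, and 0.315, 0.749 and 0.926 in SA 52 to 54. In silwet they were 12.9, 18.4 and 23.8 in titles 37 to 39, 1.05 to 1.72 in titles 40 to 42, and 0.880, 8.42 and 1.64 in titles 43 to 45. First and later runs did not overlap in either treatment, and all later arrays but silwet title 44 had signals of 1.72 or less, under the highest bacterial median of 2.65.

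**Figure D1:**
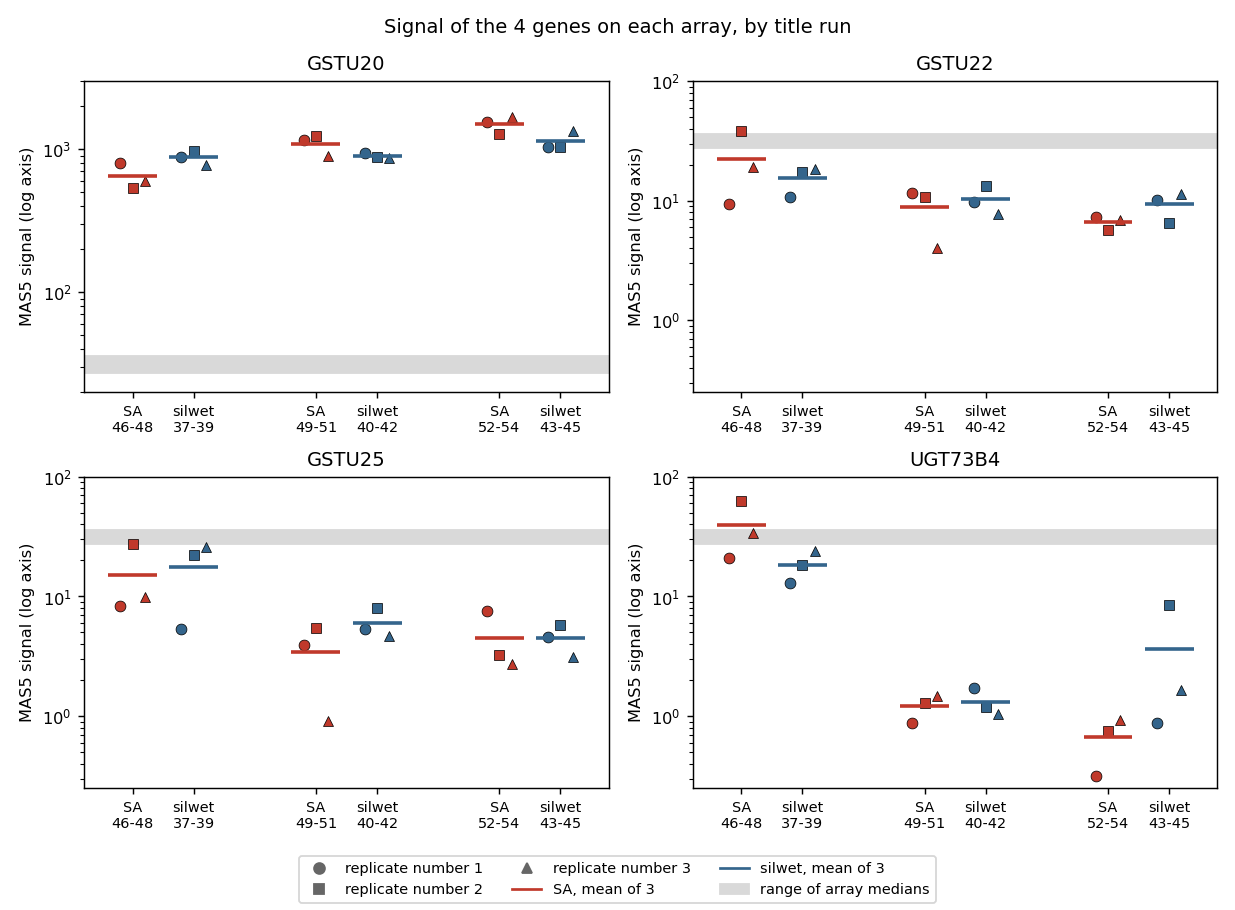
Signal of each gene on every array (points, MAS5 signal on a log axis) by title run, SA runs left of silwet runs, with horizontal bars for run means (n = 3) and the range of array medians shaded. GSTU20 lies above the shaded range on all 18 arrays, and GSTU25 lies under the median of its array on all 18.

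Levels are given from here as log2(signal + 16). The added 16 damps the noise of dim probe sets, so a difference on this scale understates the change of GSTU22, GSTU25 and UGT73B4. On it, GSTU20 averaged 9.35 ± 0.29 in SA 46 to 48, 10.11 ± 0.24 in SA 49 to 51 and 10.57 ± 0.20 in SA 52 to 54, against 9.80 ± 0.16, 9.83 ± 0.07 and 10.16 ± 0.21 in the silwet runs in title order (SD, n = 3 each). UGT73B4 averaged 5.72 ± 0.55, 4.11 ± 0.03 and 4.06 ± 0.03 in the SA runs, against 5.09 ± 0.23, 4.11 ± 0.03 and 4.28 ± 0.29 in the silwet runs. The 6 runs of each gene were ordered by level. For none of the 4 genes did neighbouring runs in that order differ with an adjusted p under 0.05 in limma, the linear model fitted across 17059 probe sets with Benjamini-Hochberg adjustment. Neighbours in an order made from the same values have the smallest gaps by construction, so this does not show the runs to be alike. The ranges of neighbours were apart for GSTU25 between SA 46 to 48 and silwet 40 to 42 (log2 difference 0.46, adjusted p = 0.178) and for UGT73B4 between silwet 37 to 39 and silwet 43 to 45 (log2 difference 0.81, adjusted p = 0.0557).

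Over all arrays, none of the 4 genes differed between SA and silwet with an adjusted p under 0.05. The log2 difference, SA minus silwet, was 0.08 (95% confidence interval -0.32 to 0.47) for GSTU20, -0.01 (-0.32 to 0.30) for GSTU22, -0.10 (-0.46 to 0.27) for GSTU25 and 0.13 (-0.48 to 0.75) for UGT73B4. The adjusted p was 0.9998 for each. In this comparison limma called 0% of all 17059 probe sets. Unadjusted p lay under 0.05 for 233 of them. With the run means averaged within each treatment, the differences were the same, the adjusted p was 0.9996 for each gene, and 0% of probe sets were called. Here 539 had an unadjusted p under 0.05.

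The treatments were next compared run by run, in 1 fit of all 18 arrays. In SA 46 to 48 against silwet 37 to 39, UGT73B4 was 0.63 higher (SE 0.20, adjusted p = 0.107), on a background of 3.03% of probe sets called. With the replicate numbers of the titles as a block, its SE was 0.18 and its adjusted p 0.0492, and 6.72% of probe sets were called. Without SA title 46 the UGT73B4 difference was 0.88 with an adjusted p of 0.0144. It was 0.34 without SA title 47 (adjusted p = 0.504) and 0.34 without replicate 2 (adjusted p = 0.881). With array weights it was 0.74 and passed as well, and in the other fits of these matched runs it did not. GSTU20 differed by -0.45 (SE 0.17, adjusted p = 0.177), or an adjusted p of 0.117 with the block. With array weights GSTU20 differed by -0.51 and passed (adjusted p = 0.0233), where 2262 probe sets were called. GSTU22 differed by 0.22 (SE 0.21, adjusted p = 0.677), and GSTU25 by -0.11 (SE 0.23, adjusted p = 0.883). The confidence interval for GSTU25, -0.58 to 0.37, holds changes in either direction.

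None of the 4 genes passed in the later runs. In SA 49 to 51 against silwet 40 to 42 the log2 differences were 0.28 for GSTU20, -0.09 for GSTU22, -0.18 for GSTU25 and -0.01 for UGT73B4, with adjusted p between 0.844 and 0.995. In SA 52 to 54 against silwet 43 to 45 GSTU20 differed by 0.40 (SE 0.17, adjusted p = 0.710), and the other genes by -0.16, -0.0037 and -0.22 in the same order, with adjusted p between 0.833 and 0.998. Each of these comparisons called 0% of probe sets in limma. Unadjusted p lay under 0.05 for 1115 and 1164 of them. The GSTU20 difference was thus negative in the first pair of runs and positive in both later pairs, and an F-test of whether it varied between runs gave an adjusted p of 0.102. That F-test gave 0.219 for UGT73B4, 0.691 for GSTU22 and 0.937 for GSTU25, on a background of 2.5% of probe sets called.

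**Figure D2:**
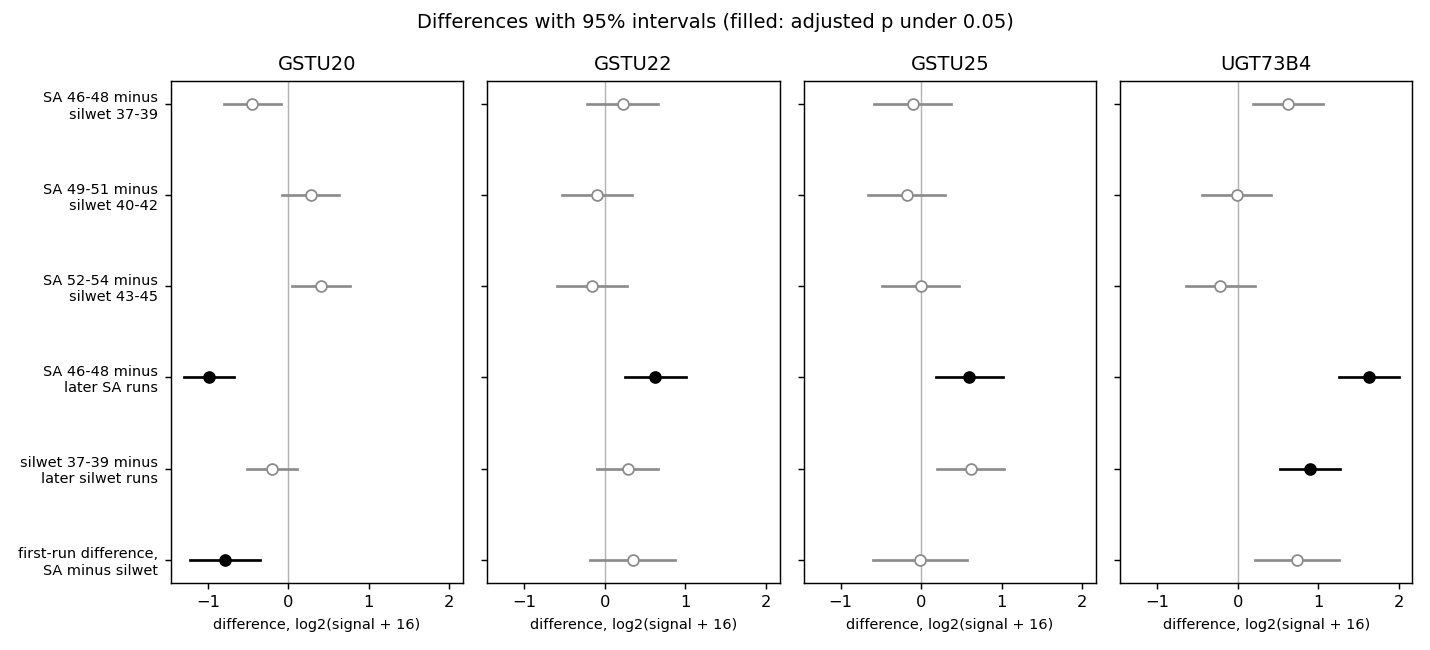
Log2 differences of the 4 genes in each comparison of runs (points, with 95% confidence intervals from the limma fit; filled points have an adjusted p under 0.05). In SA 46 to 48 against later SA runs all 4 points are filled, and in the silwet arrays alone only that of UGT73B4 is. GSTU25 and UGT73B4 passed the filter on low values only through their first runs.

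The first silwet run was then set against the later silwet runs, a comparison with no SA in it. UGT73B4 rose in silwet 37 to 39, by 0.90 on the log2 scale (SE 0.18, adjusted p = 0.00804), on a background of 2.9% of probe sets called. This gene and GSTU25 passed the filter on low values only through their first runs, so their differences here are in part a result of that choice. With no filter UGT73B4 had an adjusted p of 0.0118 in limma. Its signals in that run were 12.9, 18.4 and 23.8, and the later silwet arrays lay between 0.880 and 8.42. The rise no longer passed without silwet title 39 (0.78, adjusted p = 0.0842), without replicate 3 (0.74, adjusted p = 0.329) or against silwet 43 to 45 alone (0.81, adjusted p = 0.0557). GSTU25 was 0.61 higher (SE 0.20, adjusted p = 0.106, or 0.0543 with the replicate block), and it passed without silwet title 37 (0.92, adjusted p = 0.0161) or replicate 1 (0.91, adjusted p = 0.0369). GSTU22 was 0.28 higher (adjusted p = 0.442) and GSTU20 differed by -0.20 (adjusted p = 0.522).

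Within SA, all 4 genes differed between SA 46 to 48 and the later SA runs, where 30.5% of all probe sets were called. UGT73B4 rose by 1.64 (SE 0.18, adjusted p = 2.77e-06), which is 3.11-fold on the scale with 16 added. GSTU20 fell by 0.99 (SE 0.15, adjusted p = 6.47e-05), or 1.98-fold. Both passed in each of the 18 fits that left out 1 array and each of the 3 that left out a replicate number. GSTU22 rose by 0.63 (SE 0.18, adjusted p = 0.0122) and GSTU25 by 0.60 (SE 0.20, adjusted p = 0.0269). The size of these differences rests on the added 16 for the dim genes: with 1 or 64 added, UGT73B4 differed by 4.27 or 0.65 in SA and by 2.71 or 0.31 in silwet, GSTU25 by 1.66 or 0.21 in SA and GSTU22 by 1.28 or 0.25 in SA, while GSTU20 differed by -1.004 or -0.94 in SA. The calls stayed as they were. Without SA title 47 neither passed: GSTU22 was then 0.34 higher (adjusted p = 0.145) and GSTU25 0.34 higher (adjusted p = 0.243), and without SA title 51 GSTU25 was 0.55 higher (adjusted p = 0.0563).

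The difference between those first-run differences, SA minus silwet, takes the first-run difference of silwet off that of SA. It also holds differences between the later runs and any run effect that the treatments do not share, so it cannot be read as the SA effect alone. It was -0.79 for GSTU20 (SE 0.21, adjusted p = 0.0352, and 0.0209 with the replicate block), against 4.91% of probe sets called. The first-run difference of GSTU20 was thus more negative in SA (-0.99) than in silwet (-0.20), but the call was lost in 10 of the 18 fits that left out 1 array (titles 37, 38, 42, 43, 44, 47, 48, 49, 50 and 54; -0.95 to -0.67, adjusted p 0.0119 to 0.137) and in all 3 that left out a replicate number. It was 0.74 for UGT73B4 (SE 0.25, adjusted p = 0.101), and 0.0484 with the block, where 8.96% of probe sets were called, and it was 0.996 (adjusted p = 0.0148) without SA title 46. Without SA title 47 it was 0.45 (adjusted p = 0.322), and without replicate 2 it was 0.38 (adjusted p = 0.782). For GSTU22 it was 0.34 (SE 0.25, adjusted p = 0.537) and for GSTU25 -0.01 (SE 0.28, confidence interval -0.60 to 0.57, adjusted p = 0.991). The first-run difference of GSTU25 was 0.60 in SA and 0.61 in silwet, side by side, with a difference between them that could lie anywhere in that interval.

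Markers of tissue and ratios of RNA quality were compared over the same runs. The 3 named green-tissue markers summed to 4592 to 5486 in SA 46 to 48, 6498 to 7323 in SA 49 to 51 and 4912 to 7905 in SA 52 to 54, against 5922 to 6224, 5944 to 7687 and 6197 to 8253 in the silwet runs in title order. Each of the 3 had its lowest run mean in SA 46 to 48 (PRK 1341 there, against 1996 in silwet 37 to 39), but their sums overlapped with SA 52 to 54. Root markers PYK10 and EXPA18 summed to 107.6 to 129.5, 162 to 213.4 and 64.1 to 270.2 in the SA runs, against 120.7 to 196.6, 96.5 to 135.4 and 85.7 to 266 in the silwet runs, so the first runs did not stand apart. The log2 ratio of the 3′ to the 5′ ubiquitin probe set, a measure of RNA length and labelling, was 1.39 ± 0.11 in SA 46 to 48 and 1.52 ± 0.22 in silwet 37 to 39, against 1.70 to 2.02 in the later SA runs and 1.80 to 1.95 in the later silwet runs. For GAPDH the ratio was -0.03 ± 0.30 and -0.08 ± 0.21 in these first runs, against 0.21 to 0.47 in later SA runs and 0.09 to 0.39 in later silwet runs. The actin ratio did not set the first runs apart, with 1.85 ± 0.72 in SA 46 to 48 and 1.84 ± 0.34 in silwet 37 to 39, against 2.06 to 2.19 in later SA runs and 1.83 to 2.20 in later silwet runs. The part of these measures in the results of the 4 genes was not tested, and in bulk samples fewer cells of a type and less RNA per cell cannot be told apart.

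Across the 18 arrays GSTU22, GSTU25 and UGT73B4 moved together and GSTU20 moved against them, as a description of arrays that share runs. Pearson's r on the log2 scale was 0.84 between GSTU22 and GSTU25, 0.81 between GSTU22 and UGT73B4 and 0.80 between GSTU25 and UGT73B4. GSTU20 had r of -0.67 with GSTU22, -0.58 with GSTU25 and -0.79 with UGT73B4. The 18 values share 6 runs and 3 replicate numbers, so they are not independent.

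The gene table lists GSTU23, GSTU22, GSTU21, GSTU20 and GSTU19 within a few genes of each other, GSTU25 between GSTU24 and GSTU26, and UGT73B4 next to UGT73B5. Whether a probe set also binds the transcript of such a related neighbour was not tested. GSTU21, with run means of 1.19 to 5.28, and GSTU23, with run means of 4.15 to 8.70, were too dim to be tested, and GSTU19 and GSTU24 were not analysed here. GSTU26 had mean signals of 5.29 in SA 46 to 48, against 3.77 in silwet 37 to 39, and with 9.38 and 17.9 in later SA runs and 10.6 and 14.0 in later silwet runs, the order of first and later runs was opposite to that of GSTU25 in both treatments. Its first-run differences were -0.43 in SA (adjusted p = 0.129) and -0.48 in silwet (adjusted p = 0.239), so neither passed.

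UGT73B5, a close relative of UGT73B4 known for its part in defence against bacteria, had mean signals of 87.0 in SA 46 to 48 and 45.0 in silwet 37 to 39. Its later run means were 18.5 and 16.6 in SA and 29.3 and 20.01 in silwet. It rose by 1.57 in the first SA run over later ones (SE 0.19, adjusted p = 9.35e-06). In silwet the first-run difference was 0.61 (adjusted p = 0.0945), and the difference between both was 0.95 (adjusted p = 0.0498). Like UGT73B4, it had positive first-run differences in both treatments, the larger one in SA.

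Beside GSTU20, GSTU22 and GSTU25, 6 glutathione S-transferases were tested, out of 14 named here and 52 in the gene table. Most of the family is thus not covered. None of the 6 passed between SA and silwet in any run, beside 3.03% of all probe sets called in the first runs and 0% in the later ones. In silwet alone none passed either, beside 2.9% of all probe sets. At those shares few or no calls would be found among 6 genes. Between SA 46 to 48 and later SA runs, where 30.5% of all probe sets were called, 1 rose and 2 fell, with a median of -0.32 over the 6, against -0.04 over all probe sets. GSTU18, of the tau class, fell by 1.27 (adjusted p = 0.000288), with mean signals of 95.9 in SA 46 to 48 and 236 and 245 in the later SA runs. GSTL3, of the lambda class, fell by 0.50 (adjusted p = 0.00536), and GSTU27 rose by 0.69 (adjusted p = 0.00688). In silwet the first-run differences of these genes were -0.37, -0.31 and 0.06, and none passed.

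Beside UGT73B4, 34 UDP-glycosyltransferases were tested, out of 49 named here and 60 in the gene table. Between SA 46 to 48 and silwet 37 to 39, 2 of them rose and 1 fell, beside 3.03% of all probe sets called, with a median of -0.01 against -0.05 over all probe sets. UGT76B1, which glucosylates isoleucic acid and SA, rose by 2.73 (adjusted p = 0.00255), with mean signals of 1623 in SA 46 to 48 and 233 in silwet 37 to 39. IAGLU, an indole-3-acetate glucosyltransferase, rose by 1.77 (adjusted p = 0.00769), and UGT78D1, a flavonol rhamnosyltransferase, fell by 1.12 (adjusted p = 0.0260) and is named after its values were seen.

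In silwet 37 to 39 against the later silwet runs, 3 of the 34 rose and 0 fell, beside 2.9% of all probe sets called in either direction (343 up and 152 down), with a median of 0.15 against 0.02 over all probe sets. They were UGT76B1 (1.85), UGT73C1 (1.502) and UGT76C2 (0.51), and both UGT73C1 and UGT76C2 are named after their values were seen. UGT73C1 is known, like UGT73B4, for conjugating products of trinitrotoluene, and it had mean signals of 27.4 in SA 46 to 48 and 44.4 in silwet 37 to 39. Its later run means lay under the filter limit of 7.23, except for 8.116 in silwet 40 to 42. UGT73C1 thus passed the filter on low values through its first runs. Its first-run differences in both treatments are in part a result of that choice. Between SA 46 to 48 and later SA runs, 10 rose and 4 fell, beside 30.5% of all probe sets called, with a median of 0.17 against -0.04, among them UGT76B1 (4.40), IAGLU (2.04), UGT73B5 (1.57) and UGT87A2 (1.06). The difference between both first-run differences passed for UGT76B1 (2.56), IAGLU (1.92), UGT73B5 (0.95) and, as a fall, UGT78D1 (-1.48), beside 4.91% of all probe sets called. Its median over the 34 was -0.14, against -0.05 over all probe sets. None of the 34 passed in the later runs or over all arrays, where 0% of all probe sets were called.

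**Figure D3:**
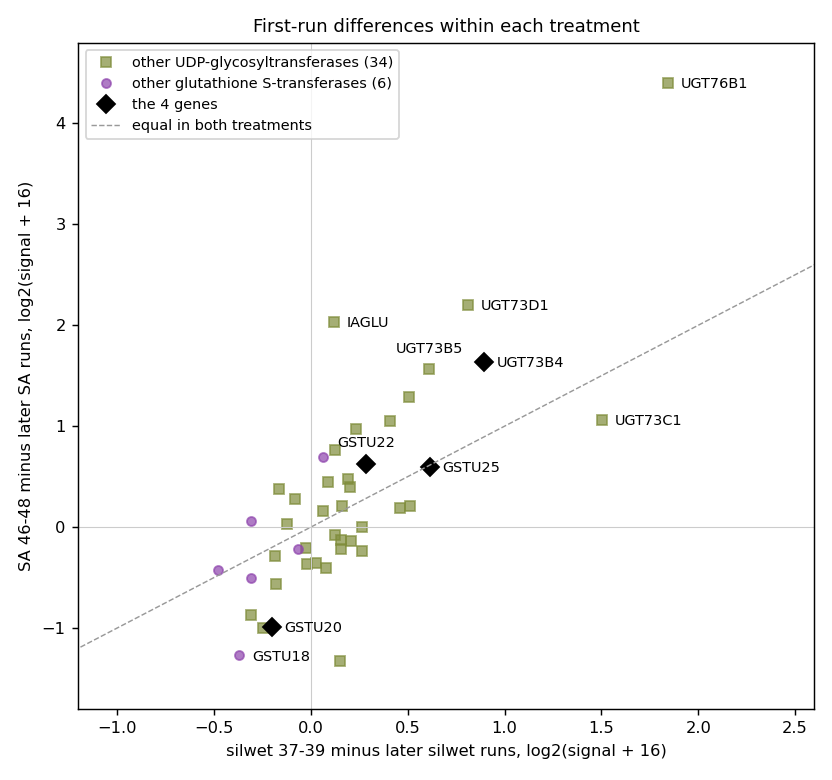
First-run difference within SA (vertical axis) against that within silwet (horizontal axis), both on log2(signal + 16), for the 4 genes, 6 other glutathione S-transferases and 34 other UDP-glycosyltransferases, with the line of equal differences. UGT73B4 (1.64 in SA, 0.90 in silwet) lies above the line, GSTU25 (0.60 and 0.61) on it and GSTU20 (-0.99 and -0.20) below it.

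Of 17 other detoxification genes of the as-1 type, 3 are named on the array. AT4G01870 rose by 1.85 in SA 46 to 48 over silwet 37 to 39 (adjusted p = 0.00691), with mean signals of 1731 in SA 46 to 48 and 480 in silwet 37 to 39, and by 2.81 over later SA runs (adjusted p = 1.59e-06). The alkenal reductases AER and AOR, which detoxify reactive carbonyl compounds, fell by 0.95 and 0.95 in SA 46 to 48 against later SA runs (adjusted p = 0.000518 and 0.00109). AOR fell by 0.78 in silwet 37 to 39 as well (adjusted p = 0.0376), while the fall of AER there, at -0.44, did not pass (adjusted p = 0.200). Of 10 TGA factors and partners, GRX480 alone is named, a glutaredoxin that binds TGA factors and is known to be SA-responsive. It rose by 1.28 in SA 46 to 48 over silwet 37 to 39 (adjusted p = 0.00691), with mean signals of 788 in SA 46 to 48 and 320 in silwet 37 to 39, and the difference between both first-run differences was 1.61 (adjusted p = 0.00384). Of 7 genes of glutathione synthesis and reduction, 2 were tested and 0 passed in any comparison, beside at most 30.5% of all probe sets called.

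The genes most like each member were those with the highest Pearson's r over the 18 arrays among 9493 named probe sets, a description that says nothing of function. For GSTU20 they were BCAT4 (r = 0.91), the aminotransferase that starts methionine chain elongation for glucosinolates, AT1G21440 (0.91) and AT4G30940 (0.89). BCAT4 averaged 472, 863 and 1353 in the SA runs in title order, against 835, 667 and 993 in the silwet runs. For GSTU22 they were AT3G04010 (0.92), AT1G28390 (0.89) and AT1G71530 (0.87).

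For GSTU25 the most similar genes were AT1G24095 (0.93), AT5G14730 (0.90) and AT5G43450 (0.89). AT5G43450 averaged 701, 159 and 153 in the SA runs, against 867, 204 and 168 in the silwet runs, so it was high in the first run of both treatments and far above background. For UGT73B4 they were AT2G41380 (0.97), AT1G08940 (0.97) and AT5G06570 (0.96). AT2G41380 averaged 125, 17.0 and 15.6 in the SA runs, against 71.5, 16.5 and 17.6 in the silwet runs. Between SA 46 to 48 and silwet 37 to 39, AT1G08940 (0.68, adjusted p = 0.0426) and AT5G06570 (0.99, adjusted p = 0.0339) passed, while AT2G41380 (0.60, adjusted p = 0.312) did not. None of the 3 genes like GSTU25 passed there, with log2 differences of -0.18, -0.27 and -0.42 and adjusted p of 0.546 to 0.881. All these genes were picked for their likeness over the same 18 arrays. Their differences between runs thus follow in part from that choice and are not independent of those of UGT73B4 and GSTU25.

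**Figure D4:**
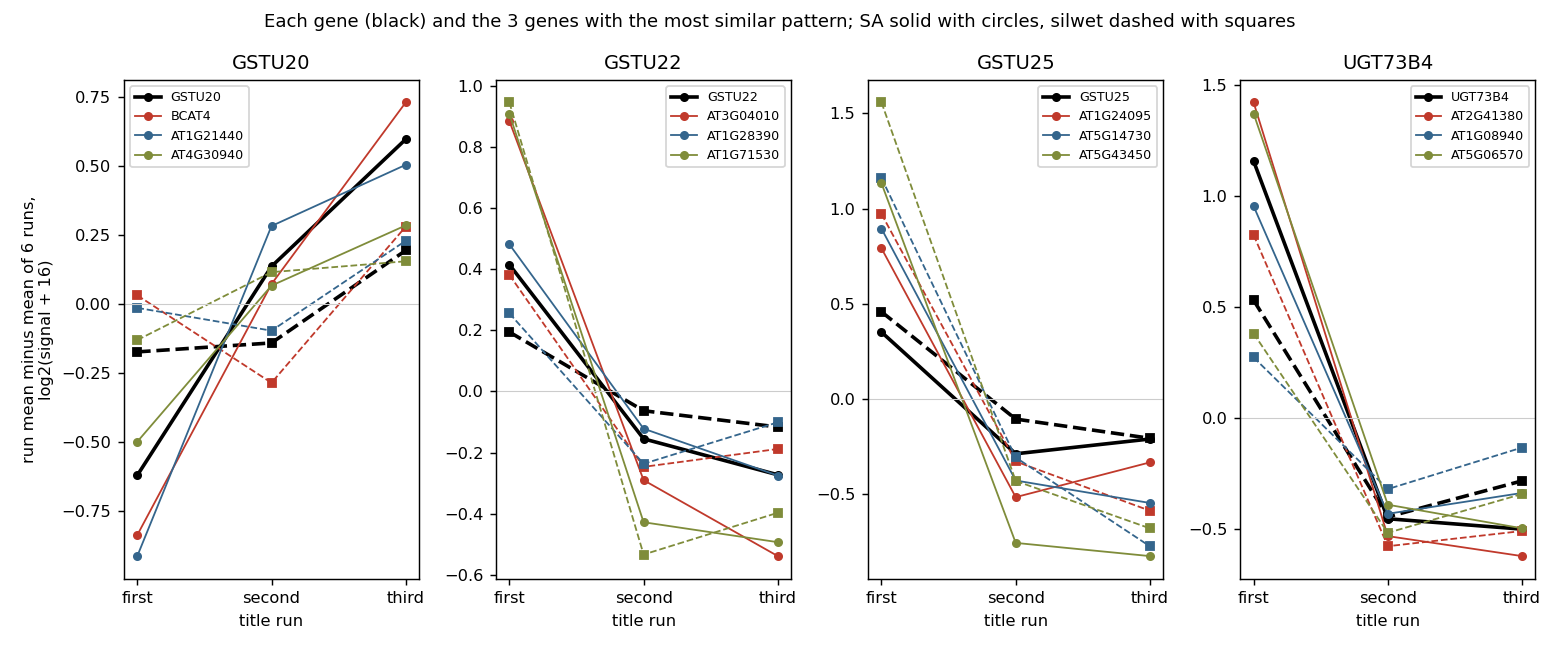
Run means of each gene (black) and its 3 most similar genes, as the difference from the mean of all 6 runs on log2(signal + 16), by position of the title run, SA solid and silwet dashed (n = 3 arrays per point). GSTU20 and its similar genes are lowest in SA 46 to 48, and those of GSTU22, GSTU25 and UGT73B4 are highest in first runs.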

How the data were processed

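Per the submitters' processing notes, MAS5 made the deposited values, which are intensity signals on a linear scale for each probe set and array. Each array had been scaled by the authors to one trimmed mean (100.008 to 100.01), and the sources used here give no version, settings or detection calls. No 2 arrays were identical. Of 22810 probe sets, 64 controls and those with a mean signal under the 25th percentile were left out, and 17059 were tested as log2(signal + 16) with limma 3.58.1 (R 4.3.3; eBayes with a variance trend), Benjamini-Hochberg adjustment and a threshold of 0.05. All comparisons of runs came from 1 fit with 6 cells, treatment by title run. The comparison over all arrays had 2 groups. Figures used Python 3.11.15 with matplotlib 3.10.9. Precision is limited by how many arrays there were.

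Gene names came from the platform annotation, updated to the TAIR10.1 gene table. Of plant probe sets, 13513 had 1 gene (13436 matched to a locus), 503 several and 8730 none here. Named genes were the 4 members, up to 4 genes per list with an adjusted p under 0.05 in a comparison of runs, by smallest p, and 3 genes per member by Pearson's r. Members and lists were chosen with earlier results of these data known.

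Deviations from the treatment means were alike in SA and silwet arrays of one replicate number, with correlations of 0.757, 0.563 and 0.645 for numbers 1, 2 and 3 across 17059 probe sets. The numbers were taken to pair the arrays on this ground, not from the labels. Alternatives were other offsets, quantile normalization, other filters, the replicate block, array weights, no variance trend, a random block, other run matches and left-out arrays. The scripts were tested on simulated data.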

Additional observations from a re-analysis of the deposited data

Results flagged for a closer look

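The GSTU25 level on the SA array of title 47 was 5.44 on the log2(signal + 16) scale, and the next of the 9 SA arrays was at 4.69. The gap was 0.551 of the range of the 9 arrays, beyond Dixon's limit for 9 values. Title 47 belongs to SA 46 to 48, a run that itself lay above the later SA runs for GSTU25 (0.60, adjusted p = 0.0269), and the limit takes the 9 arrays as 1 group without regard to runs. It was 1 such case among 8 groups examined. Chance gives about 1 in 20 for each single group, and so a higher rate for any case among the 8. On the same array GSTU22 and UGT73B4 also had their highest signals of the series, 38.1 and 62.7, and GSTU20 its lowest, 536.

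The first-run difference of GSTU20 differed between SA and silwet by -0.787 (SE 0.21, adjusted p = 0.0352, limma), with -0.99 in SA and -0.20 in silwet. The call was lost in 10 of 18 fits that left out 1 array and in all 3 that left out a replicate number, and the F-test over runs gave an adjusted p of 0.102. All 3 arrays of SA 46 to 48 lay below the 6 later SA arrays.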

How the results depend on the processing

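Of 1041 differences or F-test values of the 4 genes recomputed under alternatives, 933 kept direction and side of the threshold, 23 no longer passed, 16 newly passed and 69 changed sign, 0 of these 69 with an adjusted p under 0.05. The causes were not tested. With the replicate block, UGT73B4 newly passed in SA 46 to 48 against silwet 37 to 39 (0.63) and in the difference of first-run differences (0.74), and it changed no other call of the 4 genes. Probe sets called with the block numbered 1147 in SA 46 to 48 against silwet 37 to 39, 1177 for the first silwet run, 1528 for the difference of first-run differences and 976 in the F-test.

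With array weights, SA 46 to 48 against silwet 37 to 39 gave -0.51 for GSTU20, 0.0776 for GSTU25 and 0.74 for UGT73B4, with 2262 calls. Under the same weights the difference of first-run differences was 0.19 for GSTU25 and 0.87 for UGT73B4 (2371 calls), the F-test gave adjusted p of 0.0190 for GSTU20 and 0.04845 for UGT73B4 (1532 calls), and the first silwet run had 1330 calls. Weights also gave -0.20 for UGT73B4 over all arrays, 0.0452 for GSTU22 averaged over runs and 3 calls in SA 49 to 51 against silwet 40 to 42. Set against silwet 40 to 42, SA 46 to 48 gave 0.46 for GSTU25 and 1.60 for UGT73B4 (3219 calls). Set against silwet 43 to 45, it gave -0.81 for GSTU20, 0.56 for GSTU25 and 1.44 for UGT73B4 (2954 calls). GSTU20 passed against silwet 43 to 45 (adjusted p = 0.00291, limma), and UGT73B4 passed in both of these other matches. The first silwet run against silwet 43 to 45 alone gave 0.81 for UGT73B4 and 240 calls.

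An offset of 1 gave -0.0789 for UGT73B4 over all arrays and averaged over runs, 0.28 for GSTU25 in the difference of first-run differences and 1 call in SA 49 to 51 against silwet 40 to 42. An offset of 64 gave 0.0078 for GSTU22 over all arrays and averaged, 0.0001 for GSTU25 in SA 52 to 54 against silwet 43 to 45, and 2 calls for the average over runs. Quantile normalization gave 0.0089 for GSTU22 over all arrays and averaged, 0.0269 for GSTU25 in SA 52 to 54 against silwet 43 to 45, and 0.0748 for GSTU25 in the difference of first-run differences. Without both first runs UGT73B4 differed by -0.11 over all arrays, and with no filter 1 probe set was called there. With a filter at the median GSTU22, GSTU25 and UGT73B4 were not tested.

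Leaving out single arrays or replicate numbers gave these ranges. For SA 46 to 48 against later SA runs GSTU22 lay between 0.34 and 0.94, GSTU25 between 0.34 and 0.82, and calls between 2512 and 5612. Without replicate 2 or 3 neither gene passed. In silwet 37 to 39 against later runs GSTU25 lay between 0.38 and 0.92, UGT73B4 between 0.74 and 1.02, and calls between 44 and 707. In the difference of first-run differences GSTU20 lay between -0.95 and -0.57, GSTU25 between -0.32 and 0.25, UGT73B4 between 0.38 and 0.996, and calls between 1 and 1357. For SA 46 to 48 against silwet 37 to 39 GSTU22 lay between -0.0656 and 0.48, GSTU25 between -0.41 and 0.19, UGT73B4 between 0.34 and 0.88, and calls between 3 and 797. In SA 49 to 51 against silwet 40 to 42 GSTU22 lay between -0.19 and 0.0565, UGT73B4 between -0.0307 and 0.0225, and calls between 0 and 8. In SA 52 to 54 against silwet 43 to 45 GSTU25 lay between -0.11 and 0.0851. The F-test gave adjusted p of 0.0376 to 0.971 for GSTU20 and 0.0438 to 0.998 for UGT73B4, both lowest without SA title 46, and 1 to 665 calls. Over all arrays GSTU20 lay between -0.0136 and 0.19, GSTU22 between -0.13 and 0.0638, GSTU25 between -0.21 and 0.0241, and UGT73B4 between -0.0751 and 0.24. Averaged over runs GSTU20 lay between -0.0052 and 0.12, GSTU22 between -0.10 and 0.0776, GSTU25 between -0.20 and 0.0241, and calls between 0 and 1.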
